A study of Mus musculus with 4 samples.

Results

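The genes described here are 10 mouse genes by which the absorptive cells of the gut, the enterocytes, take up dietary lipid and pack it for export, namely Apoa1, Apoa4, Apob, Apoc3, Fabp1, Fabp2, Mttp, Rbp2, Npc1l1 and Cd36. They were chosen by name, from their place in this pathway, with earlier results of these data known. Every array probe whose RefSeq accession belonged to one of them was taken. This gave 13 probes of 56605, and 10 genes of the 22911 that could be named. All 10 were above background in every population.

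Expression was measured on 4 one-colour arrays, 1 for each of 4 populations of sorted tumour cells from the mouse intestine. All came from mice of the genotype Lgr5CreERT2/+; Ctnnb1lox(ex3)/ox(ex3), taken 14 days after tamoxifen, which lets the Cre enzyme cut out the loxP-flanked exon of Ctnnb1 and leaves a stabilised beta-catenin, the effector of Wnt signalling. Cre is made from the Lgr5 locus, so the deletion starts in cells that express this stem cell receptor, and all 4 populations share the genotype, the treatment and the gate on the epithelial surface protein EpCAM. They differ in the sort on Lgr5 and on a tuft cell marker, given in the design text as IL17RB, a receptor subunit of the chemosensory tuft cells, so that Lgr5+ tuft marker+ cells carry both, Lgr5+ tuft marker- cells and Lgr5- tuft marker+ cells carry 1 of them, and Lgr5- tuft marker- cells carry neither. No normal epithelium was analysed here, and neither the number of animals behind each sort nor the segment of the intestine is given in the sources used here.

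In the absorptive enterocyte, fatty acids and sterols from the gut lumen cross the brush border, are held in the cytosol by small binding proteins and are rebuilt into triglycerides and esters in the endoplasmic reticulum. There the microsomal transfer protein loads them onto apolipoprotein B, and the particle, a chylomicron, takes on further apolipoproteins before it is secreted towards the lymph. These genes are switched on as cells leave the crypt and mature on the villus, under transcription factors such as HNF4, GATA4 and CDX2, and are widely used as enterocyte markers.

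Since many of these genes are known targets of the same factors, the 250 bases before their RefSeq start sites (build GRCm38.p6) were searched for 4 short motifs on both strands, and 9 of the 10 genes matched an entry in the promoter table. The motif of HNF4, CAAAGTNCA, was present in 3 of the 9, those of Apoa4, Fabp2 and Rbp2, and in 1.21% of 27025 promoters of the same length. The GATA motif, AGATAA, was present in 1 of 9 (10.3% of all), the CDX motif, TTTATG, in 2 of 9 (11.1%), and the TATA box, TATAAA, in 3 of 9 (13.0%). A match is a description of letters and not evidence of binding, and a missing match says nothing of a factor. The promoters that hold the HNF4 motif, and that of Fabp1, which holds both the CDX motif and a TATA box, are given 5' to 3' along the gene with every match of the 4 motifs in capitals. In Rbp2 the GATA match and the first TATA match overlap, so that they form a single run of capitals.
Apoa4, chr9:46240594-46240843, plus strand: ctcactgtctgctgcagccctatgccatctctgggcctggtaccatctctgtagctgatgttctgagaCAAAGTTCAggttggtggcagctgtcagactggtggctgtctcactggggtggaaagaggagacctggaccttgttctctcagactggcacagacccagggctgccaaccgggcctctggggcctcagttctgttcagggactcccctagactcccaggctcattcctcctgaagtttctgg
Fabp2, chr3:122894822-122895071, plus strand: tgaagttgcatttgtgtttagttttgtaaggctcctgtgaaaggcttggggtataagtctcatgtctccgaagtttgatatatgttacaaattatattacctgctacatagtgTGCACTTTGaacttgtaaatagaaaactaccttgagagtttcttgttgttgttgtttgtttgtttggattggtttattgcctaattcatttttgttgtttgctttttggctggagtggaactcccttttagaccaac
Rbp2, chr9:98490287-98490536, plus strand: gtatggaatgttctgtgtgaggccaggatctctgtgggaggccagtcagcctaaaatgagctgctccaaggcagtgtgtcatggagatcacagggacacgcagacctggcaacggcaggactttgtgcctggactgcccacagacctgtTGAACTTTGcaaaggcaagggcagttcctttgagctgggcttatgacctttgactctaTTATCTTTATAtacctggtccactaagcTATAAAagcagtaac
Fabp1, chr6:71199629-71199878, plus strand: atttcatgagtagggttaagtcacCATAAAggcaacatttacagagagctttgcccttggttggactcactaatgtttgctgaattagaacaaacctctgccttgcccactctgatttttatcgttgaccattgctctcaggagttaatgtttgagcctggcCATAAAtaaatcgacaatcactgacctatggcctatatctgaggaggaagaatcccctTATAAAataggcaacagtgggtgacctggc
The HNF4 match began 182, 137 and 101 bases before the start in Apoa4, Fabp2 and Rbp2, and lay on the minus strand in Fabp2 and Rbp2. In Fabp1 the CDX matches began 226 and 88 bases before the start and the TATA box 30 bases before it.

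A level here is the log2 signal of a gene's probe after the array's 75th percentile has been subtracted, and a difference is that between 2 arrays, so that 1 on this scale is a 2-fold difference. With 1 array per population nothing was tested and no p-value is given. The only error is that of the scanner software for the reading of a spot, which came to between 0.20 and 0.22 for a difference between any 2 arrays of these genes, except for Cd36, and which holds nothing of the variation between animals or sorts. Levels are not compared between genes, because probes differ in their response. In such bulk samples fewer cells of a type and less RNA per cell cannot be told apart. Between 60.2% and 69.0% of the spots were well above background, and 14053 genes were above it on all 4 arrays. The genes of the sort followed their labels, with Il17rb at -0.38 and 0.12 in the tuft marker+ populations against -3.13 and not above background in the others, and Lgr5 at -0.78 and -0.80 in the Lgr5+ populations against not above background and -3.19. The choice of scaling moved the balance of all genes, so that genes at least 2-fold higher were 57.2% of those at least 2-fold apart for the tuft marker within Lgr5-, but from 37.0% (scaled to the median) to 79.5% (the authors' scaled values) under other choices. For the tuft marker within Lgr5+ the share was 56.2%, with 46.3% (values below the floor not raised) to 72.8% (after normexp, a model-based background correction). For Lgr5 it was 44.0% within tuft marker+, with 28.0% (the authors' scaled values) to 67.0% (scaled to the median), and 55.1% within tuft marker-, with 40.9% (scaled to the median) to 62.8% (the authors' scaled values).

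The lipid absorption genes were present in all 4 tumour populations, and their levels differed along both sorts. They were at their lowest in Lgr5+ tuft marker- cells for 7 of the 10 genes and at their highest in Lgr5+ tuft marker+ cells for 7 of the 10. Over the 14053 genes above background on all 4 arrays these shares were 21.0% and 23.8%. The exceptions at the low end were Apob, Rbp2 and Npc1l1, which were lowest in Lgr5- tuft marker+ cells. At the high end Mttp and Rbp2 were highest in Lgr5- tuft marker- cells and Fabp1 in Lgr5- tuft marker+ cells. Of the 30 steps between neighbours in these orders, 11 were within 2 scanner errors and are no order.

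**Figure D1:**
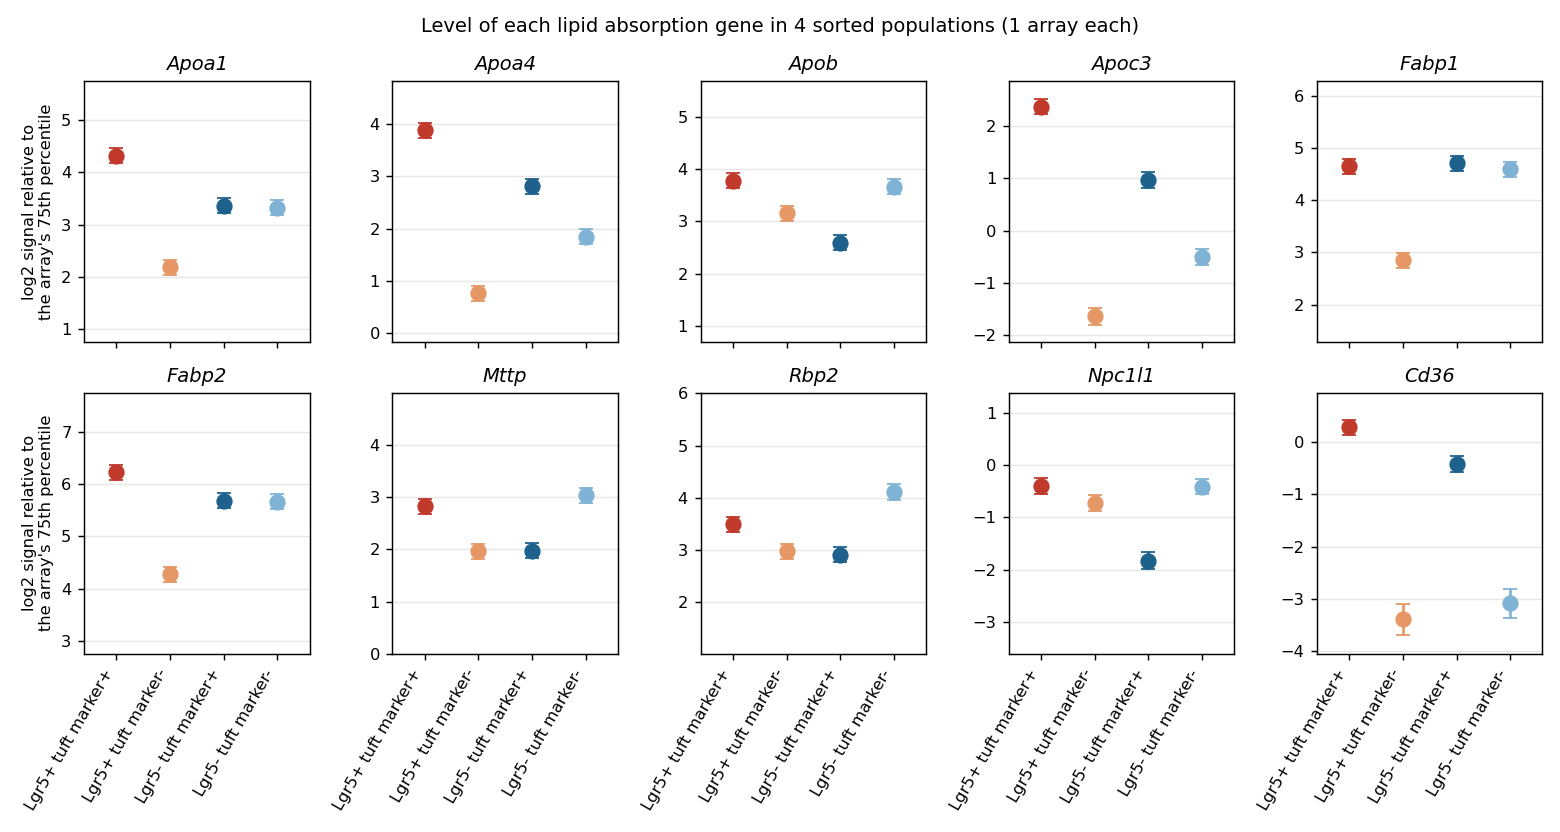
Level of each of the 10 genes (log2 signal relative to the array's 75th percentile, vertical axis, spanning the same range in every panel) in the 4 sorted populations (horizontal axis), 1 array each, with bars for the scanner error of the spot. In 7 of the 10 panels the orange point, Lgr5+ tuft marker-, is the lowest, and in 7 of the 10 the red point, Lgr5+ tuft marker+, is the highest.

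Among the genes of fatty acid uptake and binding, Cd36, a membrane protein that binds long-chain fatty acids and is also made by macrophages, endothelium, fat cells and platelets, followed the tuft marker. Its level was 0.28 in Lgr5+ tuft marker+, -3.39 in Lgr5+ tuft marker-, -0.42 in Lgr5- tuft marker+ and -3.09 in Lgr5- tuft marker- cells. Both tuft marker- arrays were close to the limit of measurement, which lay at -3.86 and -3.69, and their order was not settled (difference -0.30, error 0.41). Cd36 was thus 12.7-fold higher with the tuft marker within Lgr5+ (3.67, error 0.33) and 6.35-fold within Lgr5- (2.67, error 0.32). After normexp these differences shrank to 1.68 and 0.95.

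Most markers of macrophages were also higher in both tuft marker+ populations. All 15 macrophage markers listed were above background there, with a summed signal of 263 and 460 times the array's 75th percentile in Lgr5+ and Lgr5- cells. In the tuft marker- populations 11 and 14 of the 15 were above background, with sums of 9.47 and 19.4. Apoe alone made up 71.1% of the sum in each tuft marker+ population, and the other 14 summed to 75.8 and 133 there against 7.83 and 8.61. The defining marker Adgre1 was not above background in Lgr5+ tuft marker- cells. The largest differences within Lgr5+ were those of Mmp12 (7.89 within Lgr5+ and 7.45 within Lgr5-), Apoe (6.83 and 4.93) and the complement gene C1qc (at least 6.65, and 5.92). Of 12 endothelial markers 7 and 9 were above background in the tuft marker+ populations and 5 in each of the others, with sums of 2.93 and 5.38 against 4.11 and 2.66. Gpihbp1 had the highest level of them on every array, at 0.16, 1.24, 1.02 and 0.52 in the same order as for Cd36. For the tuft marker within Lgr5+ 2 of 7 measured were at least 2-fold higher and 2 lower (10.4% and 8.08% of all genes). Within Lgr5- 6 of 9 were higher and none lower (16.3% and 12.2%), with a median of 1.15. Pecam1, which defines endothelium, stood at -2.54, -2.14, -0.38 and -2.34 in the order of populations used above. All 10 fat cell markers were above background in 3 populations and 8 of them in Lgr5- tuft marker- cells, with sums of 19.2, 11.3, 12.3 and 11.3. For the tuft marker 4 of the 10 were at least 2-fold higher in each Lgr5 class, where 10.4% of all genes within Lgr5+ and 16.3% within Lgr5- were. These were led by Cfd (5.22) within Lgr5+ and Fabp4 (2.34) within Lgr5-. The defining fat cell marker, Adipoq, was the only one at least 2-fold lower within Lgr5+ (-1.09), where 8.08% of all genes were. It stood at -2.69, -1.59, -2.53 and not above background, and within Lgr5- it was among the 4 higher (at least 1.08). Of 9 platelet and red cell markers 5, 5, 7 and 6 were above background, with sums of 5.82, 7.06, 9.15 and 5.90. Of these Pf4 alone was at least 2-fold apart for the tuft marker, by at least 3.96 within Lgr5+ and by 4.60 within Lgr5-. It was 1 of 6 and 1 of 7 measured, where 10.4% and 16.3% of all genes were at least 2-fold higher. The medians of the list were -0.13 and 0.20. The part of any of these cells in the signal of Cd36, or in the tuft marker differences of the other 9 genes, was not tested.

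Both cytosolic fatty acid binding proteins had their lowest level in Lgr5+ tuft marker- cells. Fabp1, the liver-type protein, stood at 4.64 in Lgr5+ tuft marker+, 2.85 in Lgr5+ tuft marker-, 4.71 in Lgr5- tuft marker+ and 4.59 in Lgr5- tuft marker- cells. The upper 3 values did not differ beyond the scanner error, and the level in Lgr5+ tuft marker- cells was 3.35-fold below that in Lgr5- tuft marker- and 3.47-fold below that in Lgr5+ tuft marker+ cells. Fabp2, the intestinal type, whose promoter holds the HNF4 motif shown above, had levels of 6.23, 4.28, 5.68 and 5.67 in the same order. It was 3.88-fold higher with the tuft marker within Lgr5+, while both Lgr5- populations differed by 0.02. Among tuft marker+ cells Fabp2 was 1.46-fold above its Lgr5- level (0.55) where Lgr5 was present, where Fabp1 showed no difference beyond the error (-0.07).

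Npc1l1, the sterol transporter of the brush border and the target of ezetimibe, and Rbp2, which carries retinol in the enterocyte, had a different shape. Npc1l1 stood at -0.40 in Lgr5+ tuft marker+, -0.73 in Lgr5+ tuft marker-, -1.83 in Lgr5- tuft marker+ and -0.42 in Lgr5- tuft marker- cells. Only the Lgr5- tuft marker+ population stood apart by more than 2 errors, being 2.67-fold below Lgr5- tuft marker- (-1.42) and 2.70-fold below Lgr5+ tuft marker+ cells (1.44). Normexp brought both under 2-fold, to -0.68 and 0.72. Rbp2 had levels of 3.49, 2.98, 2.92 and 4.11 in the same order. It was highest in Lgr5- tuft marker- cells, 2.29-fold above Lgr5- tuft marker+ (-1.20) and 2.20-fold above Lgr5+ tuft marker- cells (-1.14), whose levels did not differ beyond the error.

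The genes of particle assembly had, like Rbp2, high values in Lgr5- tuft marker- cells. Mttp, the transfer protein that loads lipid onto apolipoprotein B, stood at 2.82 in Lgr5+ tuft marker+, 1.97 in Lgr5+ tuft marker-, 1.98 in Lgr5- tuft marker+ and 3.03 in Lgr5- tuft marker- cells. It was thus high in the populations that carried both markers or neither, and low in those that carried 1 of them, with no difference beyond 2 scanner errors inside either pair. Each step between the pairs was between 0.84 and 1.06 in size. Apob, the structural protein of the chylomicron, had levels of 3.78, 3.15, 2.59 and 3.67 in the same order. Its highest values were again in the doubly positive and doubly negative cells, which did not differ beyond the error, and Lgr5- tuft marker+ cells were 2.27-fold below the former and 2.10-fold below the latter. The second Apob probe gave 0.74, -1.16, 1.28 and -0.62 where the one used gave 0.62, -1.07, 1.18 and -0.51 for the 2 tuft marker differences (Lgr5+ first) and the 2 Lgr5 differences (tuft marker+ first).

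The apolipoproteins of the particle surface had the largest differences within Lgr5+ cells besides Cd36. Apoa4, made in large amounts by enterocytes during fat absorption and one of the promoters shown, stood at 3.88 in Lgr5+ tuft marker+, 0.76 in Lgr5+ tuft marker-, 2.81 in Lgr5- tuft marker+ and 1.85 in Lgr5- tuft marker- cells, with every step beyond 2 errors. It was 8.70-fold higher with the tuft marker within Lgr5+ and 1.95-fold within Lgr5-. Apoa1, the main protein of high-density lipoprotein, had levels of 4.32, 2.18, 3.36 and 3.33 in the same order, which is the shape of Fabp2. It was 4.39-fold higher with the tuft marker within Lgr5+, while the Lgr5- populations did not differ beyond the error (0.03).

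Apoc3, an inhibitor of triglyceride clearance, stood at 2.37, -1.64, 0.97 and -0.51, the order of Apoa4. It was 16.1-fold higher with the tuft marker within Lgr5+ (4.01) and 2.78-fold within Lgr5- (1.48). Its 3 probes did not agree, as the plot of the probes shows. Probe A_51_P310629 gave 3.75 and 2.60 for these differences, and A_55_P2013710 gave -0.53 and 0.92, and each of the 3 is annotated to a different RefSeq transcript. The mean of the 3 probes was 2.41 within Lgr5+, and it lowered the Lgr5 differences from 1.40 to 0.40 within tuft marker+ and from -1.13 to -0.35 within tuft marker-.

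Setting tuft marker+ beside tuft marker- cells addressed what the tuft marker sort separates in each Lgr5 class. Within Lgr5+, all 10 lipid absorption genes were higher in tuft marker+ cells, 9 of them beyond 2 scanner errors, and 6 of 10 were at least 2-fold higher, where 10.4% of 17501 genes were. These were Apoc3, Cd36, Apoa4, Apoa1, Fabp2 and Fabp1, while Mttp (0.85), Apob (0.62), Rbp2 (0.52) and Npc1l1 (0.33) were under 2-fold. None was at least 2-fold lower, as 8.08% of all genes were. The median difference of the 10 genes was 1.87, beside 0.01 for all genes. Within Lgr5- the genes went both ways. Apoc3 and Cd36 were at least 2-fold higher (2 of 10, against 16.3% of 17911 genes), and Npc1l1, Rbp2, Apob and Mttp were at least 2-fold lower (4 of 10, against 12.2%). The last 4 are also those with the smallest differences within Lgr5+. The median was 0.02, beside 0.08 for all genes, and it became -0.21 when scaled to the median and 0.38 after quantile normalization. The counts within Lgr5- depended on the scaling. There were 3 higher and 2 lower genes when only probes detected on all arrays set the 75th percentile, and 3 higher and 1 lower after quantile normalization and with the authors' scaled values. After normexp 1 gene was higher. Without Cd36, or without Apoc3, 1 gene was at least 2-fold higher within Lgr5-.

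The comparison of Lgr5+ with Lgr5- cells addressed what the stem cell receptor separates in each tuft marker class, and here the direction turned over. Within tuft marker+ cells 9 of 10 genes were higher in Lgr5+ cells beyond 2 scanner errors, and 4 of 10 were at least 2-fold higher, namely Npc1l1, Apoc3, Apob and Apoa4, where 8.92% of 17625 genes were. None was 2-fold lower, as 11.3% of all genes were, and the median was 0.90, beside -0.04 for all genes. Within tuft marker- cells all 10 were lower in Lgr5+ cells, 8 of them beyond 2 scanner errors. At least 2-fold lower were 7 of 10, namely Fabp1 (-1.74), Fabp2 (-1.39), Apoa1 (-1.15), Rbp2 (-1.14), Apoc3 (-1.13), Apoa4 (-1.08) and Mttp (-1.06), where 5.25% of 17527 genes were. None was 2-fold higher, as 6.44% of all genes were. The median was -1.11, beside 0.00 for all genes. Most of these 7 lay close to the 2-fold limit, and after normexp 3 were past it. These comparisons use the same 4 arrays as those of the tuft marker, and each array enters 2 of them.

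**Figure D2:**
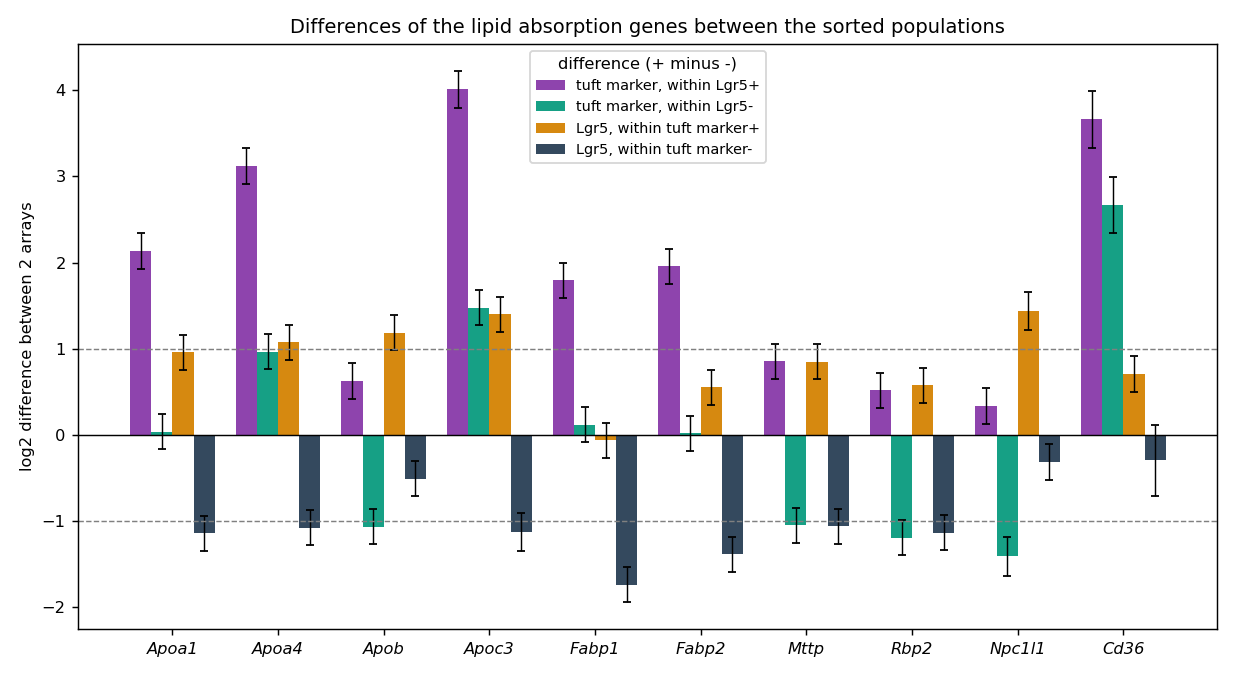
Log2 difference of each gene between 2 arrays (vertical axis) for the 4 comparisons (colours), with bars for the scanner error and dashed lines at a 2-fold difference. All 10 purple bars (tuft marker within Lgr5+) point up and all 10 dark bars (Lgr5 within tuft marker-) point down, while the green bars (tuft marker within Lgr5-) run from -1.42 to 2.67.

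What the 10 genes shared was the size of the change between the comparisons, more than their order over the populations. The double difference, taken after the values were seen, is the tuft marker difference within Lgr5+ minus that within Lgr5-, which is by arithmetic the same number as the Lgr5 difference within tuft marker+ minus that within tuft marker-. With the probe used for each gene it was positive for all 10 genes and at least 1 for all 10. Of the 14053 genes 20.0% reached 1 and 18.3% reached 1 in the other direction. The 10 genes ran from 1.0 (error 0.46) for Cd36 to 2.53 (error 0.30) for Apoc3. Apoc3 probe A_55_P2013710 instead gave a negative double difference, with tuft marker differences of -0.53 within Lgr5+ and 0.92 within Lgr5-. The median of the 10 genes was 1.83 and their mean 1.85, with a standard deviation of 0.40, beside a median of 0.13 over all genes. Apob, Fabp1, Fabp2, Mttp, Rbp2 and Npc1l1 lay between 1.68 and 1.94, although their tuft marker differences within Lgr5+ ran from 0.33 to 1.95, and Apoa1 (2.10) and Apoa4 (2.16) lay just above. Of all genes, 5% had a double difference above 1.71. Scaling by another constant per array shifts this number by the same amount for every gene, and scaling to the median raised the members' median to 2.16 and that of all genes to 0.47. With the mean of all probes Apoc3 gave 0.75, and after normexp Npc1l1 gave 0.94 and Cd36 0.73, so that 8 of 10 genes reached 1. Cd36 also fell short of 1 with the authors' scaled values (0.76) and with the percentile over detected probes (0.90), which left 9 of 10.

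**Figure D3:**
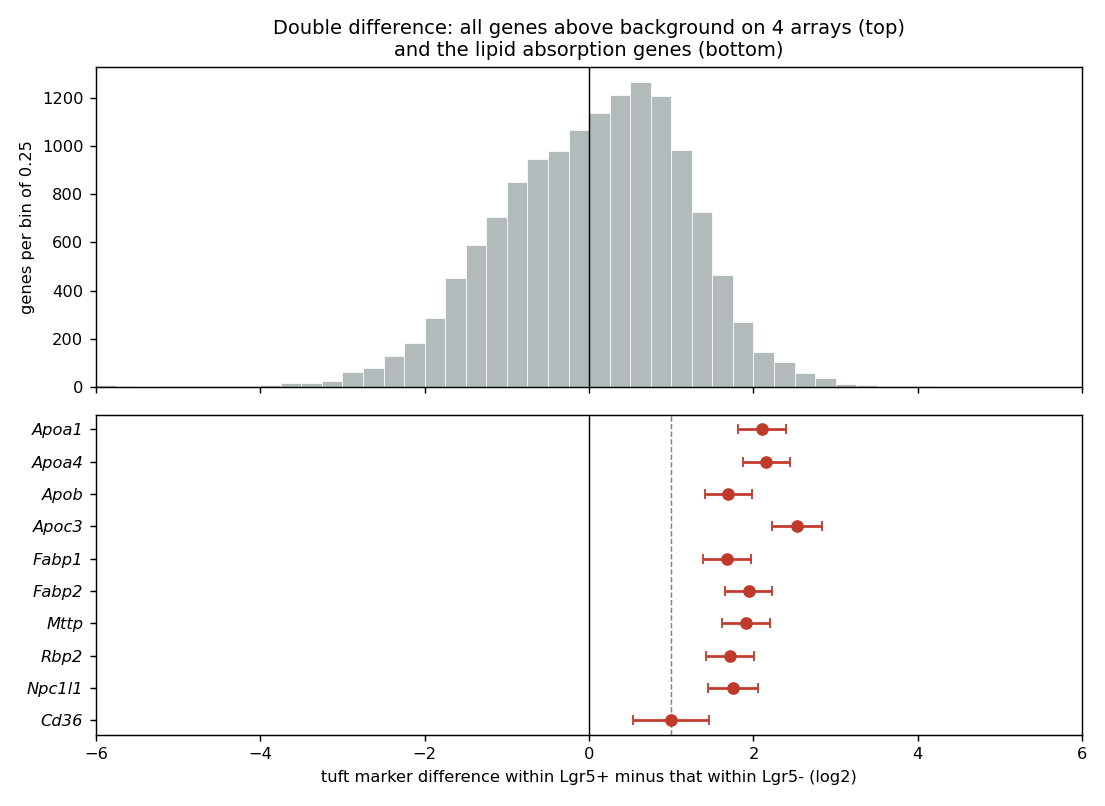
Double difference (tuft marker difference within Lgr5+ minus that within Lgr5-, log2, horizontal axis) as a histogram over the 14053 genes above background on all 4 arrays (top) and for each of the 10 lipid absorption genes with its scanner error (bottom). The 10 points lie between 1.0 and 2.53, on the upper flank of the histogram, whose end bins also hold the genes beyond the axis.

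By distance between levels centred on each gene's mean, over 4 arrays and so over 4 points only, the most alike members were Mttp and Rbp2 (0.31), Apoa1 and Fabp2 (0.35), and Apob and Npc1l1 (0.39). Cd36 was the least like the others, at 3.74 from Npc1l1. Outside the list, the gene nearest to the mean shape of the 10 was Noct, a circadian gene with a role in lipid absorption, at a distance of 0.03. Among the next were Tnrc6b (0.15), 2810021J22Rik, Fam111a, the brush border peptidase gene Anpep (0.20), Nnat and Gimap1, out of 14043 genes compared. Anpep was also the gene nearest to Apoa1 (0.06). The gene nearest to Cd36 was Rgs13 (0.28), with levels of 1.49, -1.94, 1.04 and -1.94 over the populations.

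The other lists of the pathway had smaller median differences than the 1.87 of the 10 genes for the tuft marker within Lgr5+, at 0.13 for triglyceride resynthesis, 0.58 for chylomicron assembly and lipid droplets and 0.01 for sterol handling. For the tuft marker within Lgr5+, 3 of 11 genes of triglyceride resynthesis were at least 2-fold higher and none lower (10.4% and 8.08% of all genes), namely Lpin2 (2.25), Dgat2 (1.18) and Agpat2 (1.15). Within Lgr5- 2 of 11 were at least 2-fold lower (12.2% of all), which were Dgat1 (-1.44), the last enzyme of the path, and Mogat2 (-1.17), the monoacylglycerol acyltransferase of enterocytes. The list's median double difference was 1.0. Of 16 genes of chylomicron assembly and lipid droplets, within Lgr5+ none was at least 2-fold lower and 5 were higher (10.4% of all). Among these, Apoc2, a cofactor of lipoprotein lipase, had levels of 5.57, 3.52, 5.11 and 5.45, low in Lgr5+ tuft marker- cells alone like Fabp1. The droplet coat gene Plin2 (2.23 within Lgr5+ and 1.63 within Lgr5-) followed the tuft marker as Cd36 did, and Plin3 differed by 1.26 and -0.85. Apoa2 (-0.95 and 0.22) was lower within Lgr5+, where Apoa1, Apoa4 and Apoc3 were higher, and Apoa5 gave -0.31 and 1.62.

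Other lipid-binding proteins differed from Fabp1 and Fabp2. Fabp5 (3.78 within Lgr5+ and 4.11 within Lgr5-) and Fabp4 (4.0 and 2.34), known from macrophages and fat cells, were above their tuft marker- levels in both Lgr5 classes, as was Fabp7 (1.91 and at least 1.67). Fabp6, the bile acid binding protein of the ileum, differed by 0.84 and -0.33. Of 12 sterol genes 1 was at least 2-fold higher for the tuft marker within Lgr5+ (10.4% of all), the cholesterol exporter gene Abca1 (4.55, and at least 5.96 within Lgr5-). The retinoid genes had 8 measured members within Lgr5+, none of them at least 2-fold apart. Within Lgr5-, Isx (-1.38) and Retsat (-1.11) were at least 2-fold lower, as Rbp2 was. Of 12 genes of fatty acid oxidation and ketogenesis none was at least 2-fold apart for the tuft marker within Lgr5+. Within Lgr5- 5 were at least 2-fold lower (12.2% of all), among them Cpt2 (-1.30) and Pdk4 (-1.21).

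Transcription factors that act on these genes differed less within Lgr5+ than the genes themselves. Of 24 listed, 2 were at least 2-fold higher for the tuft marker within Lgr5+, Maf (1.65) and Srebf1 (1.48), and none lower, with a median of 0.10, where 10.4% of all genes were higher. Hnf4a stood at 2.18, 1.76, 1.24 and 2.55 over the populations, Gata4 at 1.94, 1.81, 1.16 and 2.44, and Ppara at -0.57, -0.60, -0.96 and 0.48. Within Lgr5- 10 of 24 were at least 2-fold lower with the tuft marker (12.2% of all genes), among them Ppara (-1.45), Hnf4g (-1.41), Hnf4a (-1.31), Gata4 (-1.27) and Cdx1 (-1.25), while Cdx2 differed by -0.85. For Lgr5 within tuft marker- 4 of 24 were at least 2-fold lower (5.25% of all), namely Maf (-2.12), Srebf1 (-1.35), Ppargc1a (-1.18) and Ppara (-1.08). The list's median double difference was 0.93, with 11 of 24 at 1 or more (20.0% of all).

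The label of the genes as enterocyte genes was set beside other enterocyte and epithelial markers on the same arrays. Of 22 brush border genes, lactase (Lct) was above background in none of the populations, and 21 were measured. For the tuft marker within Lgr5+ 9 of 21 were at least 2-fold higher (10.4% of all genes) and none lower, with a median of 0.60, led by Ada (4.22), Slc15a1 (2.52) and Slc6a19 (at least 2.46). Within Lgr5- 2 of 21 were higher and 8 lower (16.3% and 12.2% of all), with a median of -0.51. For Lgr5 within tuft marker- 7 of 21 were at least 2-fold lower (5.25% of all) and none higher, with a median of -0.81, among them the fructose transporter gene Slc2a5 (-2.47), Anpep (-1.22) and Alpi (-1.18). Their median double difference was 1.47, with 17 of 20 at 1 or more (20.0% of all). Of 8 ileal markers 4 were above background in all populations, among them Fabp6, while Slc10a2 and Fgf15 were so in none. The median tuft marker difference of 12 general epithelial markers was 0.14 for Lgr5+ and -0.89 for Lgr5- cells, and the median Lgr5 difference was 0.70 for tuft marker+ and -0.33 for tuft marker- cells. Their median double difference was 0.94, and Epcam itself had levels of 5.02, 5.22, 4.52 and 5.56. Within Lgr5-, 4 of these 12 epithelial markers were at least 2-fold lower with the tuft marker (12.2% of all genes). Krt18 alone was at least 2-fold higher (1.58, against 16.3% of all), and Krt8 did not differ (0.00). The low values of Apob, Rbp2 and Npc1l1 in Lgr5- tuft marker+ cells stood beside a lower median of these markers in the same cells. Any link between them was not tested. Of 14 hepatocyte markers, a cell type that also makes apolipoproteins, 5 were above background in all populations, 4 in none (Ttr, Apoh, Fgb and Fgg), and Alb in 3, at -2.72, -2.21 and -3.18. For the tuft marker within Lgr5+ 2 of 10 measured were at least 2-fold higher and 3 lower (10.4% and 8.08% of all genes). Within Lgr5- 2 of 9 were higher and 1 lower (16.3% and 12.2%). The higher ones were in both classes Hp (3.21 within Lgr5+ and 2.11 within Lgr5-) and Trf (2.03 and 2.92). The part of hepatocytes in the apolipoprotein signal was not tested.

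**Figure D4:**
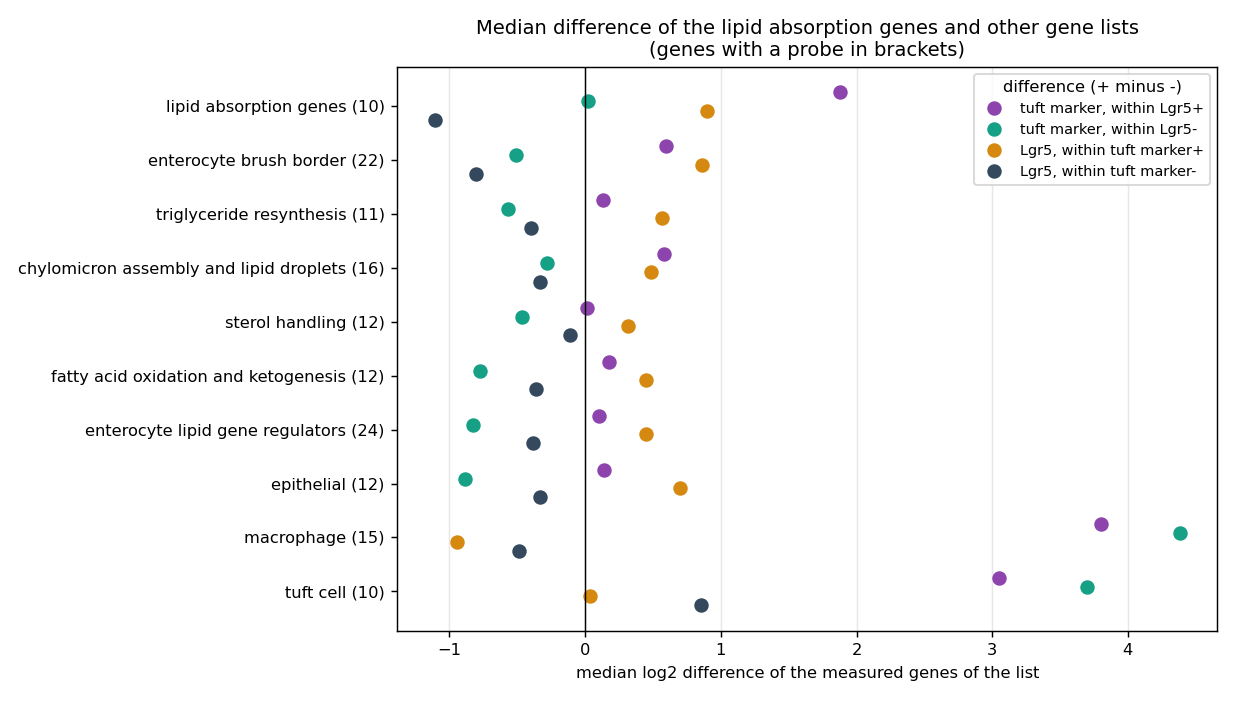
Median log2 difference of the measured genes of each list (horizontal axis) for the 4 comparisons (colours), with the number of genes with a probe in brackets. The lipid absorption genes have medians of 1.87 and -1.11 for the tuft marker within Lgr5+ and for Lgr5 within tuft marker-, and the macrophage and tuft cell markers lie to the right for the tuft marker in both Lgr5 classes.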

How the data were processed

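Each of 4 sorted tumour cell populations was hybridised to its own one-colour Agilent array. Per the labels' protocols, each labelling started from 13 ng of total RNA. Per the file headers, the authors' deposited scanner files hold the processed intensity of each spot from Agilent Feature Extraction 12.0.3.1, already background-subtracted and detrended within the array, with its error and flags of 0 or 1 that other columns of the deposited files give. Version 11.5.1.1 is the one in the submitters' processing notes, and which of them gave the values was not settled. The deposited table of scaled intensity equals the scanner intensity times 1 constant per array (10.9, 7.82, 11.9 and 9.08 in the order used in the text); its scale is linear, its column medians were 279, 286, 365 and 253, and it was not centred by gene, as found from the values.

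Of 62976 spots per array, control spots and 91 to 122 outlier spots were left out, and none was saturated. Log2 intensities were centred per array on their 75th percentile. Where a gene had several probes, the one brightest on average stood for it, and 32994 of 56605 probes were named through a RefSeq table of GRCm38.p6, giving 22911 genes, while 23611 probes were left unnamed. The array grid was annotated on an older build, so coordinates are given only for the RefSeq promoters. Differences were taken for genes above background on at least 1 of both arrays compared. Lower values were raised to the lowest level well above background (from -3.86 to -3.41), and such differences are given as at least that large. Promoters were searched only before the start site, leaving out the transcribed bases that the plan had included. The code that computes differences and counts was checked on simulated levels. Alternatives were scaling to the median or over detected probes, quantile normalization, normexp (limma 3.58.1, offset 50) and the authors' scaled values. The others were the mean of all probes, no floor, another detection flag and no filter. Normexp was run on median spot signals, since the mean signal column planned for it was absent from the scanner files. The members and lists were chosen with earlier results of these data known. The rule for named genes took all 10 members, the regulators, the 3 genes with the largest difference in each pair in the other lists, defining markers and the genes nearest in pattern, and some genes it took are not reported here; Apoa2, Apoa5, Apoc2, Fabp6, Plin3, Ttr, Apoh, Fgb, Fgg, Slc10a2, Fgf15 and Lct are named outside this rule, where it did not reach them, with their values known. Precision is limited by the number of arrays.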

Additional observations from a re-analysis of the deposited data

Results flagged for a closer look

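For 7 of the 10 genes the difference between Lgr5+ and Lgr5- cells had opposite signs in the tuft marker classes, each beyond 2 scanner errors. The double difference, which measures this, was not tested, since there is 1 array per population. Apoa1 was higher in Lgr5+ cells within tuft marker+ (0.96) and lower within tuft marker- (-1.15), a double difference of 2.10. Apoa4 gave 1.07 and -1.08 (2.16), Apoc3 gave 1.40 and -1.13 (2.53), and Fabp2 gave 0.55 and -1.39 (1.94). The Apoc3 values are those of 1 of its 3 probes. Probe A_51_P310629 gave 0.93 and -0.22, and A_55_P2013710 gave -1.15 and 0.30. With neither of these were both differences beyond 2 scanner errors. For Apob the values were 1.18 and -0.51 (1.69), for Mttp 0.84 and -1.06 (1.91), and for Rbp2 0.58 and -1.14 (1.71).

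For 3 of the 10 genes the tuft marker difference also had opposite signs in the Lgr5 classes, and the double difference is the same number by arithmetic. Apob was higher with the tuft marker within Lgr5+ (0.62) and lower within Lgr5- (-1.07). Mttp gave 0.85 and -1.06, and Rbp2 gave 0.52 and -1.20.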

How the results depend on the processing

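No paired analysis was possible because each population has 1 array and the labels carry no shared replicate numbers. All 10 genes were above background on every array, so no floor, the other detection flag and no filter could not move their values. Each of these settings left 50 values unmoved by construction, and the mean of all probes could move only Apob and Apoc3. Of 450 values of single genes under the 9 alternatives, these fixed ones included, 384 moved by less than the scanner error. All 297 that were at least 1 in size in the main setting kept their sign, 271 of them at 1 or more. Of the 153 smaller ones 4 changed sign, all when scaled to the median. The tuft marker difference within Lgr5- was then -0.20 for Apoa1, -0.12 for Fabp1 and -0.22 for Fabp2, and the Lgr5 difference within tuft marker+ was 0.16 for Fabp1. The median of the 10 genes for the tuft marker within Lgr5+ was 1.61 after normexp. Within Lgr5- it was -0.21 when scaled to the median, 0.38 after quantile normalization and 0.32 with the authors' scaled values. For Lgr5 within tuft marker+ it was 1.12, and for the double difference 2.16, when scaled to the median. For the tuft marker within Lgr5-, 1 gene was at least 2-fold higher after normexp, without Cd36 and without Apoc3, and the lower genes were 2 with the percentile over detected probes, 1 after quantile normalization and 1 with the authors' scaled values. For Lgr5 within tuft marker- 3 genes were at least 2-fold lower after normexp. The double difference and the settings without a gene were added after the data were seen. Signal over background limits Cd36 most, at intensities of 16.7 and 16.9 on the tuft marker- arrays.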

Other observations

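The chromosomal neighbours of the members were read from the order of protein-coding genes in the RefSeq table and were chosen after the values were seen. Apoa1, Apoc3, Apoa4 and Apoa5 follow each other on chromosome 9. The first 3 had double differences of 2.10, 2.53 and 2.16, while Apoa5, whose levels were -2.20 and -1.89 in Lgr5+ cells with and without the tuft marker and -0.90 and -2.52 in Lgr5- cells with and without it, had one of -1.93. Cd36 lies beside Gnat3, the taste G protein gene of tuft cells, which was at least 2.05 higher with the tuft marker within Lgr5+ and at least 1.89 higher within Lgr5-, where Cd36 differed by 3.67 and 2.67. On its other side, Sema3c differed by 0.59 and -0.66.

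Of the genes nearest in pattern to single members, Apob was closest to Ybx3 (distance 0.04), Fabp2 to Blvrb (0.01), Mttp to Cdk18 (0.07), Rbp2 to the flavin monooxygenase gene Fmo5 (0.05) and Npc1l1 to Rmdn3 (0.06), and the apolipoprotein gene Apoc3 to Slc28a2b, a nucleoside transporter gene (0.23). These distances rest on 4 points each.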
